A study of Mus musculus with 6 samples.

Results

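TGF-β together with the calcium entry inhibitor 2APB was compared with TGF-β alone in NMuMG cells, an epithelial line that was derived from the mammary gland of mice. The comparison rests on the 4 libraries whose labels name these treatments, 2 of each, out of 6 in the series, and the other 2 libraries, from cells given the vehicle DMSO, show the level without TGF-β. TGF-β was used at 5 ng/ml and 2APB at 50 uM, so that both groups compared received TGF-β and differ by 2APB. RNA was sequenced and counted per gene to ask how the inhibitor alters the transcriptional response of these cells to TGF-β. No library was made from cells with 2APB and no TGF-β, so an effect of 2APB by itself cannot be told apart from an effect on the TGF-β response. The study gives the order and length of the treatments in different ways in its results and its methods, and the counts do not settle it. The study's methods call the replicates biological, and the labels do not say whether they were separate cultures. All libraries come from 1 cell line, so the p-values measure only the spread between these samples.

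TGF-β binds receptor kinases at the cell surface that phosphorylate SMAD proteins, which enter the nucleus and regulate transcription. In mammary epithelial cells it slows proliferation and starts an epithelial to mesenchymal transition, in which junctions between cells are taken apart while matrix and cytoskeletal genes are induced. Store-operated calcium entry opens when calcium in the endoplasmic reticulum falls: STIM proteins sense the loss and open ORAI channels in the plasma membrane. 2APB blocks this entry at high concentration and also acts on inositol trisphosphate receptors and on several channels of the TRP family. The study describes 2APB as a blocker of ORAI1 and ORAI2, and it proposes that 2APB raises calcium entry through ORAI3.

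The libraries held 76741720 and 71840570 counts in the DMSO group, 79473182 and 72543866 under TGF-β and 79460664 and 78790318 under TGF-β+2APB, of which the 10 most abundant genes took between 6.35% and 7.40%. Normalised counts are scaled to the mean library. The markers of luminal mammary epithelium were at unequal levels. Krt8, a keratin of simple epithelia, had 252797 and 234557 in DMSO, 413392 and 355754 under TGF-β, and 729718 and 700826 under TGF-β+2APB. Its partner Krt18 had 173792 and 161096 in DMSO, 340788 and 291157 under TGF-β, and 608802 and 563306 under TGF-β+2APB. Of the 17 luminal markers listed, 13 were in the table. They summed to 831498 and 708236 normalised counts under TGF-β and 1385430 and 1317310 under TGF-β+2APB, with Krt8 the most abundant in each library. Krt8 and Krt18 made up most of each sum, so its rise restates theirs. In the test described below, 4 of the 10 tested members were higher and 1, Krt19, was lower. Cdh1 had 58644 and 47268 under TGF-β and 35078 and 41083 under TGF-β+2APB. Some other luminal markers were highest in DMSO or nearly absent. Muc1, an apical mucin, had 9255 and 8626 in DMSO, 912 and 694 under TGF-β, and 412 and 726 under TGF-β+2APB. The adhesion molecule Epcam had 128 and 163 in DMSO, 50.7 and 58.1 under TGF-β, and 61.4 and 86.9 under TGF-β+2APB, and Cldn7 and Esr1 did not exceed 8 counts in any library. Of 9 myoepithelial and basal markers, all in the table, the keratins Krt5 and Krt14 did not exceed 4 counts in any library and the factor Trp63 did not exceed 6. The list summed to 14580.5 and 14871 normalised counts in DMSO, 4693 and 4441 under TGF-β and 1230.2 and 1849.7 under TGF-β+2APB, with Mylk, the myosin light chain kinase, the most abundant in each library. Mylk fell by 1.69 (edgeR FDR 0.00852, SE 0.22) on the log2 scale. Cnn1, calponin 1, fell by 1.71 (edgeR FDR 0.0154, SE 0.28) on the same scale, but its edgeR FDR was 0.055 without DMSO replicate 1, 0.0552 without DMSO replicate 2 and 0.0549 without TGF-β+2APB replicate 1 (range 2.47e-05 to 0.0552) and it was called in 7 of 8 fits that left out no replicate. Krt17, another basal keratin, had 3.90 and 6.23 under TGF-β and 51.5 and 39.5 under TGF-β+2APB and was not tested.

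The replicates differed more in the compared groups than in DMSO, and with 2 of each it cannot be told which of a pair departs. In 9785 genes the mean was at least 500 normalised counts, and among them the SD of the log2 difference between replicates was 0.11 in the DMSO group, 0.40 under TGF-β and 0.31 under TGF-β+2APB. TGF-β replicate 2 had more than 2 times the count of replicate 1 in 312 of these genes. Symbols starting with Zfp, the zinc finger genes, made up 15.1% of the 312 and 2.42% of all 9785. TGF-β+2APB replicate 2 had more than 2 times the count of replicate 1 in 75 genes. In the test described below, 34 of the 75 were called lower and 0 higher, and of the 312 genes 0 were lower and 1 higher. Among all 9785 genes, 1152 were lower and 676 higher. Markers of leukocytes, 14 listed and all in the table, summed to 21422 and 17431 normalised counts in DMSO, 13834 and 9624 under TGF-β, and 4051 and 38981 under TGF-β+2APB. Cd14 was the most abundant of them in every library but TGF-β+2APB replicate 2, where Lyz2, a lysozyme of macrophages and granulocytes, had 28684 against 156 in replicate 1 and 789 and 189 under TGF-β. The T cell markers Cd3e and Cd3g did not exceed 4 counts in any library. Markers of salivary and lacrimal gland, 18 of 20 in the table, summed to 17.5 and 2872 under TGF-β and to 7007 and 11057 under TGF-β+2APB, against 43.3 and 66.1 in DMSO. Their most abundant gene was Bpifa2 in the last 3 of the 6 libraries, and 15 of the 18 were at 0 in each DMSO library and in TGF-β replicate 1. The part of such transcripts in the results below was not tested, and in bulk RNA fewer cells of a type and less RNA per cell cannot be told apart.

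**Figure D1:**
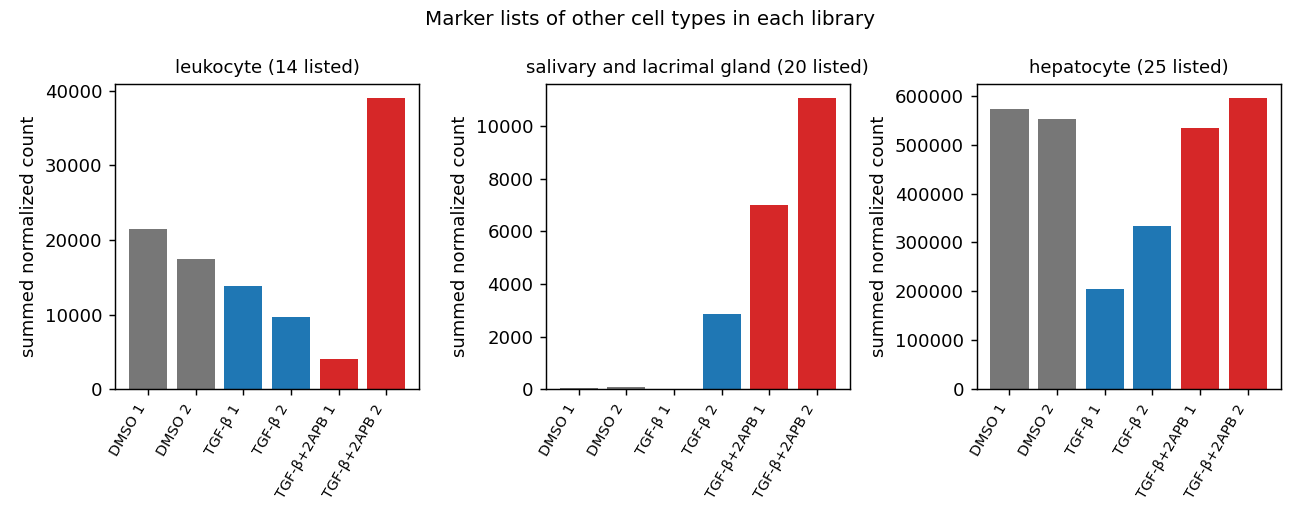
Summed normalised count (vertical axes) of the leukocyte, salivary and lacrimal gland, and hepatocyte marker lists in each of the 6 libraries, 1 bar a library. The leukocyte sum is highest in TGF-β+2APB replicate 2, at 38981, and the salivary sum is 17.5 in TGF-β replicate 1 against 2872 in replicate 2.

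A gene was called when its edgeR quasi-likelihood FDR was 0.05 or less over the 13355 genes tested, and it counted as higher or lower when both TGF-β+2APB libraries lay on the same side of both TGF-β libraries. Addition of 2APB raised 879 genes (6.58% of those tested) and lowered 1456 (10.9%), and every called gene had its 4 libraries in that order. Where a called gene is said below to be separated or not to overlap between the groups, this restates that rule. Such a statement adds no support to the call. Over all tested genes 7747 (58.0%) had the libraries in order, and the median log2 fold change was -0.00. A change of at least 2-fold was seen in 275 of the raised and 566 of the lowered genes. The counts depended on single libraries. Without TGF-β replicate 1 the test called 1757 higher and 2033 lower, and without TGF-β replicate 2 it called 2469 and 2936. Without TGF-β+2APB replicate 1 the counts were 482 and 504, and without replicate 2 they were 426 and 832. Leaving out a DMSO library, which is in the fit only for the estimate of spread, gave 349 and 509 without replicate 1 and 339 and 495 without replicate 2. Without TGF-β replicate 1 and TGF-β+2APB replicate 2 together, a fit chosen after seeing the data and left with 1 residual degree of freedom, 3329 genes were higher and 3251 lower, and of the 4 such pairs only this was run. DESeq2, run on all 6 libraries and not on fits with a library left out, called 1672 higher and 2024 lower. For these reasons the genes named below as raised or lowered were called in each of the other fits that tested them (DESeq2, other scalings and filters, a replicate block, only the 4 compared libraries, halved counts and each library left out), except where the loss of a call is given. Where a call was lost, the single libraries whose omission ended it are named, and a number of remaining fits, where given, counts those without a replicate left out in which the gene was called. The counts of a list are to be read beside the 6.58% and 10.9% over all tested genes, and a share near these is not a result about its members. A gene that did not pass missed the threshold in edgeR with TMM scaling and all 6 libraries, and may have been called in another fit.

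Among called genes with a mean of at least 200 normalised counts over the 4 libraries compared, the 10 largest falls included that of Stc1, a secreted glycoprotein that takes part in calcium and phosphate balance. The gene (GRCm38.p6, chr14:69029289-69041401) had 2679 and 2745 in DMSO, 1407 and 1123 under TGF-β, and 41.6 and 96.7 under TGF-β+2APB, a log2 fold change of -4.19 (edgeR FDR 0.00386, SE 0.36). Both TGF-β+2APB libraries were far below the 4 others. The largest falls also included Fgb (fibrinogen beta chain), Il33 (an alarmin cytokine), Muc5b (a gel-forming mucin), C1s1 (a complement protease), Gzme and Mcpt8 (serine proteases), Ugt2b35 (a glucuronosyltransferase) and Dio3os. Log2 fold changes of these genes ran from -4.41 for Ugt2b35 to -3.87 for Mcpt8. Mcpt8 had 5.9 and 16.5 in DMSO, 1417 and 1189.7 under TGF-β, and 63.4 and 115 under TGF-β+2APB, so that TGF-β had brought it from nearly no reads to a level that 2APB mostly removed. Gzme was induced and lost in the same way, with 29.5 and 47.5 in DMSO, 557 and 453 under TGF-β, and 25.8 and 39.5 under TGF-β+2APB. The edgeR FDR of Dio3os, which shares its locus with Dio3 on the opposite strand, was 0.103 without DMSO replicate 1 and 0.104 without DMSO replicate 2, with a range of 0.0047 to 0.109 over those fits, and it was called in 5 of 8 remaining fits. Ugt2b35 missed the threshold when only the 4 compared libraries were fitted, with an edgeR FDR of 0.068 in a range of 0.000427 to 0.068, and was called in 6 of 7 remaining fits.

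Fgb and C1s1 are made in quantity by liver, and the 25 hepatocyte markers, 23 of them in the table, gave 1 higher (Apob) and 5 lower among the 14 tested. TGF-β alone had already lowered 12 of the 14 against DMSO and raised 0, with a median of -5.39. Fgb had 13939 and 13519 in DMSO, 550 and 314 under TGF-β, and 11.9 and 37.5 under TGF-β+2APB. The list summed to 572753 and 552765 normalised counts in DMSO, 205085 and 333268 under TGF-β, and 533444 and 594982 under TGF-β+2APB. Apob, the apolipoprotein of very low density lipoprotein, made up nearly the whole sum in the compared libraries, with 198751 and 329476 under TGF-β and 532265 and 592892 under TGF-β+2APB, and 11 and 10 of the 23 were at 0 under TGF-β+2APB against 7 and 6 under TGF-β. For Apob the log2 fold change was 1.09 (edgeR FDR 0.0288, SE 0.23). Its FDR was 0.076 without DMSO replicate 1, 0.0769 without DMSO replicate 2, 0.0749 without TGF-β+2APB replicate 1 and 0.0837 without TGF-β+2APB replicate 2, in a range of 6.18e-05 to 0.0837 over those fits, and it was called in 7 of 8 remaining fits. Whether RNA of other cells has a part in these values was not tested.

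Genes that were not called are left out of the order of rises. The salivary marker Smr3a, for example, had 0 and 600 under TGF-β and 1624 and 2953 under TGF-β+2APB. Among called genes with a mean of at least 200, the largest rise was in Prkg1, the cyclic GMP-dependent protein kinase. The gene (chr19:30564487-31765268) had 11.8 and 20.7 in DMSO, 23.4 and 31.1 under TGF-β, and 434 and 349 under TGF-β+2APB, a log2 fold change of 3.84 (edgeR FDR 0.0042, SE 0.35). Dusp2, a nuclear phosphatase of MAP kinases, had 11.8 and 6.2 in DMSO, 72.1 and 43.6 under TGF-β, and 408 and 353 under TGF-β+2APB, with a log2 fold change of 2.71 (edgeR FDR 0.00964, SE 0.37). The other large rises were Aldh1l1 (folate metabolism), Trpv4 (a calcium channel), Arid3c, Arc (a cytoskeletal early-response gene), Prg4 (lubricin), Hr (a transcriptional corepressor), Duoxa1 (the maturation factor of dual oxidase 1) and Serpinb9e. They ran from 2.53 for Aldh1l1 down to 2.24 for Serpinb9e on the log2 scale. Arc had 1.97 and 10.3 in DMSO, 169.6 and 141 under TGF-β, and 905 and 746 under TGF-β+2APB, and Hr had 1526 and 1588 in DMSO, 487 and 515 under TGF-β, and 2549 and 2355 under TGF-β+2APB. Neither gene overlapped between the groups compared. Leaving out libraries ended the calls of Prg4 and Serpinb9e: the edgeR FDR of Prg4 was 0.0542 without DMSO replicate 1 and 0.0549 without DMSO replicate 2 and that of Serpinb9e was 0.0631 without TGF-β replicate 1 and 0.056 without TGF-β+2APB replicate 1, within ranges of 8.75e-06 to 0.0549 and 1.36e-06 to 0.0778. In the remaining fits Prg4 was called in 8 of 8 and Serpinb9e in 6 of 7.

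Among the abundant genes with at least a 2-fold change, Ctse rose and Spp1 fell. Spp1 (chr5:104435111-104441053), the secreted phosphoprotein osteopontin, had 551932 and 552036 in DMSO, 599775 and 625461 under TGF-β, and 112425 and 154852 under TGF-β+2APB, a log2 fold change of -2.20 (edgeR FDR 0.00307, SE 0.15). Cldn2, the pore-forming claudin of leaky tight junctions, had 45315 and 45151 in DMSO, 85729.5 and 73145 under TGF-β, and 29752 and 32324 under TGF-β+2APB. Its TGF-β+2APB values were the lowest of the 6. Ctse, the aspartic protease cathepsin E, went the other way with 4513 and 4203 in DMSO, 12526 and 11204 under TGF-β, and 44052 and 40240.1 under TGF-β+2APB. Col12a1 and Tmem176b fell by 2APB, with log2 fold changes of -1.28 (edgeR FDR 0.00307, SE 0.09) and -1.79 (edgeR FDR 0.00501, SE 0.18). The selenium carrier Sepp1 had a log2 fold change of -1.55 (edgeR FDR 0.0154, SE 0.25), and its FDR was 0.0501 without DMSO replicate 2, in a range of 5.8e-08 to 0.0501.

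Genes of mitosis fell. Of 40 members, all tested, 36 fell, and the other 4 (Cenpe, Cenpf, Espl1 and Hmmr) did not pass. The median log2 fold change was -1.32, against -0.00 over all tested genes. Ccnb2, cyclin B2, which activates Cdk1 at entry into mitosis, had 1868 and 1931 in DMSO, 1783 and 1441 under TGF-β, and 384 and 371 under TGF-β+2APB, a log2 fold change of -2.09 (edgeR FDR 0.0027, SE 0.13). Anln, the anillin that scaffolds the cleavage furrow, had 3548 and 4161 in DMSO, 6097 and 7199 under TGF-β, and 1747 and 1826 under TGF-β+2APB. Cdc25b, a phosphatase that activates Cdk1, had 863 and 961 in DMSO, 899 and 764 under TGF-β, and 212 and 267 under TGF-β+2APB. In all of these the TGF-β libraries lay near those of DMSO or above them, and the TGF-β+2APB libraries lay below all 4. Cdc20, which directs the anaphase-promoting complex, had 1782 and 1614 in DMSO, 1372 and 1283 under TGF-β, and 384 and 381 under TGF-β+2APB, with a log2 fold change of -1.79 (edgeR FDR 0.00234, SE 0.10). Cdk1 itself fell by 1.04 (edgeR FDR 0.00398, SE 0.09) on the log2 scale, Plk1 by 1.60 (edgeR FDR 0.00395, SE 0.14) and Aurkb by 1.48 (edgeR FDR 0.00375, SE 0.13). Cenpe, a kinesin of the kinetochore, was split within the TGF-β group, with 1167 and 3112 under TGF-β and 933 and 657 under TGF-β+2APB, and missed the threshold (edgeR FDR 0.0893, range 0.00615 to 0.264). Leaving out single libraries left between 29 and 39 members of the mitosis and G2/M list lower, and DESeq2 lowered 38. With TGF-β against DMSO, which shares the TGF-β libraries, 11 of the 40 were higher and 2 lower (21.8% and 19.7% of all tested genes), with a median of 0.11.

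The promoters of these genes were searched for the letters of 2 elements known from cell-cycle genes, chosen after the values had been seen. RefSeq promoter sequences of GRCm38.p6, 300 bases from 250 before to 50 after the start and 1 for each gene, were matched to 33 of the 40 members. The element TTTGAA, or TTCAAA on the other strand, was in 24 of them (72.7%) and in 1178 of the 10015 promoters of tested genes (11.8%). The letters CCAAT, or ATTGG on the other strand, were in 25 (75.8%) and in 3898 (38.9%). Neither motif contains the other, and a match is a description of the sequence, not a site or a cause. The 4 members with the largest falls are shown because they carry the leading change, in lower case from 5′ to 3′ along the gene's strand, with either motif in capitals. They lie at chr9:70421505-70421804 on the minus strand (Ccnb2), chr9:22389157-22389456 on the minus strand (Anln), chr2:131186698-131186997 on the plus strand (Cdc25b) and chr4:118437294-118437593 on the minus strand (Cdc20).
Ccnb2: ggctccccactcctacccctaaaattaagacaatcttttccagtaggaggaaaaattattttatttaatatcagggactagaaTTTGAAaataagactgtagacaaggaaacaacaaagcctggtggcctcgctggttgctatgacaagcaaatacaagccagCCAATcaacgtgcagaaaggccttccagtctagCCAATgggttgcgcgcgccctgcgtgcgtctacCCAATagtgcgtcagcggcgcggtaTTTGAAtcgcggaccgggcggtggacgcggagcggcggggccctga
Anln: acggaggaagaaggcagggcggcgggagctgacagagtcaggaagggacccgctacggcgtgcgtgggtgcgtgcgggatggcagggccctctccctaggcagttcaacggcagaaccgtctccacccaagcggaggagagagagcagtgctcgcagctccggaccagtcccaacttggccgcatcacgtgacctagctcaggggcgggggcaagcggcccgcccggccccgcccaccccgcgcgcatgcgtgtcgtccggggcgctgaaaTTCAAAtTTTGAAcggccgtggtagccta
Cdc25b: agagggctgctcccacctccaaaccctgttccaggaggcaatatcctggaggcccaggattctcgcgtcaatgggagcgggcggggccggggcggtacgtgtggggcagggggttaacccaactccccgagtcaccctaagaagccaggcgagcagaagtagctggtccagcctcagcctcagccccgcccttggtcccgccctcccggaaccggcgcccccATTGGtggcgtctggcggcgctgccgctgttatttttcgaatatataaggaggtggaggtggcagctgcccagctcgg
Cdc20: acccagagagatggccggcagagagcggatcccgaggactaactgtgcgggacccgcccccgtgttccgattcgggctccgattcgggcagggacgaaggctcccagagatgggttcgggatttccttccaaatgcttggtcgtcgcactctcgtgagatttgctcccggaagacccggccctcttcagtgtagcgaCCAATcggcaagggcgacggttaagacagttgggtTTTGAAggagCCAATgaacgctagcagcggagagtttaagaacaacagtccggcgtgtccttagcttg

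Genes of DNA replication and the G1/S transition moved less. Of 47 listed and tested, 17 fell and the other 30 did not pass, with a median of -0.34. TGF-β alone had raised 36 of the 47 over DMSO, with a median of 0.68. Tk1, thymidine kinase of the salvage pathway, had 1984 and 2121 in DMSO, 3719 and 2849 under TGF-β, and 1181 and 1273 under TGF-β+2APB, a log2 fold change of -1.42 (edgeR FDR 0.00495, SE 0.14). Mcm10, a DNA replication factor, had 855 and 939 in DMSO, 1924 and 1555 under TGF-β, and 802 and 865 under TGF-β+2APB. E2f7, a repressor of E2F target genes, had 319 and 393 in DMSO, 766 and 806 under TGF-β, and 315 and 314 under TGF-β+2APB. With 2APB these transcripts were below both TGF-β libraries. The number of lower genes rested on single libraries and was 4 without TGF-β+2APB replicate 1, 5 without TGF-β+2APB replicate 2 and 8 without either DMSO replicate.

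Falls were frequent in cholesterol synthesis and uptake. All 25 members were tested and 14 were lower, with a median of -0.52, and the other 11 did not pass. Acat2, a cytosolic acetyl-CoA acetyltransferase, had 2321 and 2082 in DMSO, 1937 and 1688 under TGF-β, and 868 and 934 under TGF-β+2APB, a log2 fold change of -1.01 (edgeR FDR 0.00563, SE 0.11). Sqle, squalene epoxidase, had 5078 and 5050.1 in DMSO, 6268 and 5477 under TGF-β, and 3306 and 3427 under TGF-β+2APB, with a log2 fold change of -0.80 (edgeR FDR 0.00581, SE 0.09). In neither of these did a TGF-β+2APB library reach a TGF-β library. The count of lower members was 3 without TGF-β+2APB replicate 1 and 7 without either DMSO replicate or TGF-β+2APB replicate 2. In the RefSeq promoters of 17 members the sterol element TCACCCCAC, or GTGGGGTGA on the other strand, was in 1 (5.88%). This share rests on 1 promoter and stands against 0.549% of the promoters of tested genes. CCAAT in either direction was in 15 of the 17 (88.2%), against 38.9% of the promoters of tested genes. No match says only that these letters are not in the 300 bases.

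Of 22 tested genes of fatty acid synthesis and desaturation 6 were lower and the others did not pass, a count that was 1 without TGF-β+2APB replicate 1, 2 without either DMSO replicate and 14 without TGF-β replicate 2. Elovl7, an elongase of long-chain fatty acids, had 5178 and 5120.4 in DMSO, 4253 and 4850.3 under TGF-β, and 2793 and 2779.5 under TGF-β+2APB. In fatty acid oxidation and ketogenesis 1 of 27 was higher (3.70%) and 5 were lower (18.5%), against 6.58% and 10.9% over all tested genes. Cpt1a, which carries fatty acids into mitochondria, had 25615 and 24453 in DMSO, 11106 and 8033 under TGF-β, and 3247 and 4225 under TGF-β+2APB, a log2 fold change of -1.36 (edgeR FDR 0.0109, SE 0.19). Acaa2, the mitochondrial thiolase, fell by 1.19 (edgeR FDR 0.0121, SE 0.18) on the log2 scale. Both genes had their lowest values with TGF-β+2APB. Without TGF-β replicate 2, 12 members of this list were lower, and the count of higher members was 0 without either DMSO replicate or either TGF-β+2APB replicate (1, 1, 1 and 1 at an unadjusted p under 0.05 in that order) and 2 without TGF-β replicate 1.

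Of 17 tested direct TGF-β targets and feedback regulators 8 rose on addition of 2APB and the other 9 did not pass, with a median of 0.39. Against DMSO, TGF-β alone had raised 13 and lowered 2 of these genes, with a median of 0.99. Bhlhe40, a basic helix-loop-helix repressor, had 5888 and 5561 in DMSO, 16576 and 15093 under TGF-β, and 35413 and 29477 under TGF-β+2APB, a log2 fold change of 1.03 (edgeR FDR 0.00556, SE 0.11). Cyr61, a secreted matricellular protein, had 11501 and 9099.8 in DMSO, 30886 and 28797 under TGF-β, and 60099 and 49495 under TGF-β+2APB. The TGF-β+2APB libraries were above both TGF-β libraries in these genes, although the call of Cyr61 was lost without TGF-β+2APB replicate 1 (edgeR FDR 0.0764, range 6.6e-07 to 0.0764). Pmepa1, which holds SMAD proteins back from the receptor, had 43255 and 41255 under TGF-β and 68201 and 60013 under TGF-β+2APB, and its edgeR FDR of 0.0111 became 0.0836 without TGF-β+2APB replicate 1 (range 7.22e-09 to 0.0836). The count of raised members was 3 without TGF-β+2APB replicate 1, 4 without either DMSO replicate and 5 without TGF-β+2APB replicate 2.

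Targets of the coactivator YAP, a list that shares Cyr61 and other genes with the TGF-β targets, gave 10 higher and 2 lower of 29 tested, with a median of 0.20. Amotl2, an angiomotin that binds YAP, had 15595 and 14952 in DMSO, 29378 and 28959 under TGF-β, and 47919 and 45012 under TGF-β+2APB, a log2 fold change of 0.67 (edgeR FDR 0.00501, SE 0.07). Without TGF-β+2APB replicate 1 the higher count was 5, and the lower count was 0 without TGF-β+2APB replicate 1 (4 at an unadjusted p under 0.05), 1 without either DMSO replicate or TGF-β+2APB replicate 2, 4 without TGF-β replicate 1 and 7 without TGF-β replicate 2.

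Most tested keratins rose on addition of 2APB, and Krt19 fell. Of 10 keratins tested out of 32 listed, 7 rose and 1 fell, with a median of 0.88. Krt8 and Krt18, given above, had log2 fold changes of 0.90 (edgeR FDR 0.00501, SE 0.09) and 0.89 (edgeR FDR 0.00589, SE 0.10). Krt7, a luminal keratin, had 3416 and 3210.3 in DMSO, 3972 and 3565 under TGF-β, and 7785 and 6062 under TGF-β+2APB. Krt80, a keratin found in many epithelia, had 179 and 174 in DMSO, 821 and 723 under TGF-β, and 2708 and 2128 under TGF-β+2APB. All 4 were higher in both TGF-β+2APB libraries than in any other library. Krt19, a luminal keratin that is also named by the study, had 45138 and 42162 in DMSO, 12517 and 8781 under TGF-β, and 1688 and 3443 under TGF-β+2APB, a log2 fold change of -2.05 (edgeR FDR 0.0174, SE 0.36). Its FDR was 0.0546 without DMSO replicate 1 and 0.0552 without DMSO replicate 2 (range 6.08e-05 to 0.0552), and it was called in 7 of 8 remaining fits. The number of raised keratins was 4 without either TGF-β+2APB replicate, and that of lowered keratins 0 without either DMSO replicate (1 and 1 at an unadjusted p under 0.05 in that order).

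Epithelial transcription factors and splicing regulators gave 3 higher (25.0%) and 2 lower (16.7%) of 12 tested, against 6.58% and 10.9% over all tested genes. Klf4, a zinc finger factor of epithelia, had 1149 and 1087 in DMSO, 399.6 and 542 under TGF-β, and 1714 and 1680.0 under TGF-β+2APB, a log2 fold change of 1.85 (edgeR FDR 0.00375, SE 0.16). Esrp2, which directs epithelial splicing, had 4108 and 3884 in DMSO, 2052 and 2002 under TGF-β, and 3023 and 3168 under TGF-β+2APB, a log2 fold change of 0.61 (edgeR FDR 0.00652, SE 0.07). It had been lowered by TGF-β, and the values with 2APB stood above those of TGF-β alone. Ehf, an ETS factor of epithelia, had 6433 and 6392 in DMSO, 743 and 662 under TGF-β, and 347 and 405 under TGF-β+2APB and fell by 0.90 (edgeR FDR 0.00687, SE 0.11) on the log2 scale. The count of lower members was 1 without either DMSO replicate or TGF-β+2APB replicate 1. In the list of adherens junctions and desmosomes 7 of 21 were higher (33.3%) and 3 lower (14.3%), with a median of 0.35. Pkp2, plakophilin 2 of the desmosomal plaque, had 4962 and 4693 in DMSO, 6054 and 6293 under TGF-β, and 11153 and 9629.7 under TGF-β+2APB, a log2 fold change of 0.75 (edgeR FDR 0.00797, SE 0.10). The higher count was 2 without TGF-β+2APB replicate 1 and 3 without either DMSO replicate, and the lower count 0 without DMSO replicate 2 (4 at an unadjusted p under 0.05), 1 without DMSO replicate 1 or either TGF-β+2APB replicate and 7 without TGF-β replicate 2. Of 19 tested tight junction and polarity genes 3 were higher (15.8%) and 2, Cldn2 and Crb3, were lower (10.5%). The lower share is near the 10.9% over all tested genes. Crb3, an apical polarity protein, had 1290.1 and 1222 in DMSO, 871 and 673 under TGF-β, and 239.7 and 343 under TGF-β+2APB. Without TGF-β replicate 2 there were 6 lower, and the higher count was 0 without TGF-β+2APB replicate 1 (3 at an unadjusted p under 0.05) and 1 without either DMSO replicate or TGF-β+2APB replicate 2. Among keratinocyte cornification genes, 3 of 9 tested were higher and 1 was lower: Sprr1a, a cornified envelope precursor, had 42186 and 38557 in DMSO, 26144 and 19987 under TGF-β, and 2431 and 4039 under TGF-β+2APB, while Lce1g had 3.93 and 4.13 in DMSO, 3033 and 2874 under TGF-β, and 8690.3 and 7136 under TGF-β+2APB. The other rises were Lce1f, which lost its call whichever library was left out, and Sbsn, which lost it without most of them. The higher count of this list thus rests on single libraries.

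**Figure D2:**
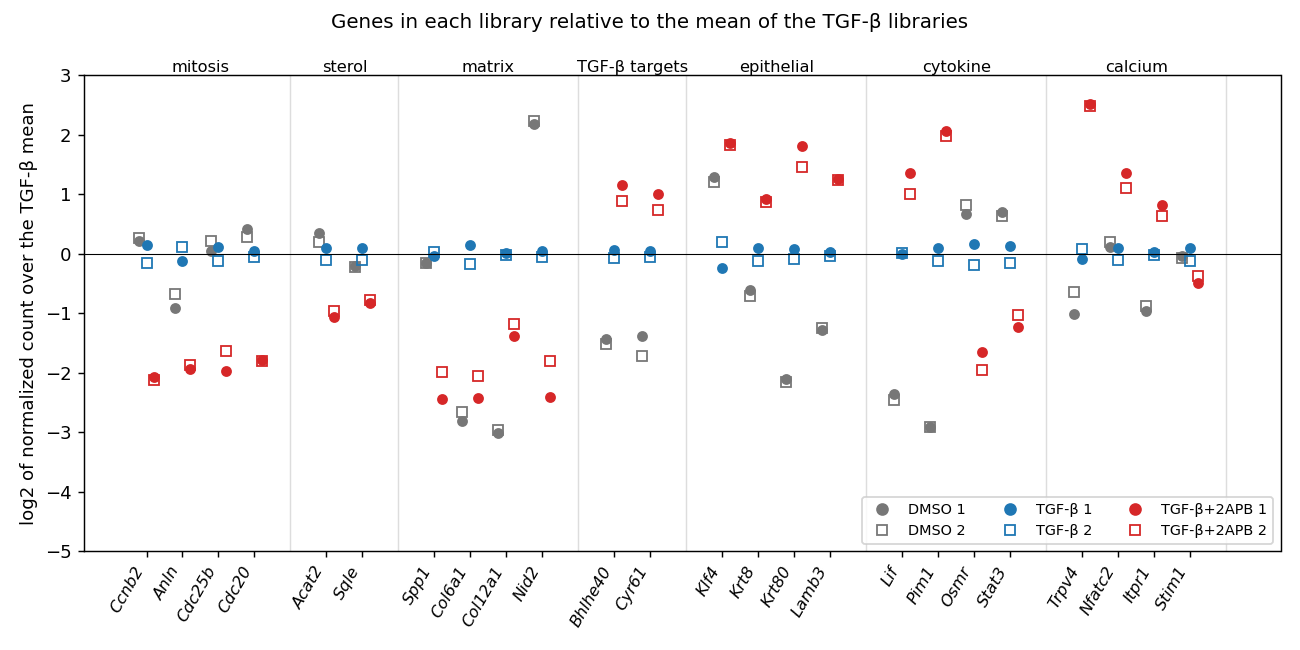
Log2 of each library's normalised count over the mean of the 2 TGF-β libraries (vertical axis) for genes grouped by function, with DMSO in gray, TGF-β in blue and TGF-β+2APB in red, filled circles for replicate 1 and open squares for replicate 2. The mitotic and sterol genes and the matrix genes Spp1, Col6a1, Col12a1 and Nid2 lie below 0 in both TGF-β+2APB libraries, and Bhlhe40, Krt8, Lamb3 and Lif lie above it.

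Of 15 tested collagens 4 fell (26.7%) and 1 rose (6.67%, near the 6.58% over all tested genes), with a median of 0.14. At an unadjusted p under 0.05 edgeR placed 4 higher and 4 lower, and DESeq2 called 3 higher and 4 lower. Col6a1, a chain of the beaded-filament collagen VI, had 466 and 515 in DMSO, 3637 and 2886 under TGF-β, and 610.1 and 784 under TGF-β+2APB, a log2 fold change of -2.23 (edgeR FDR 0.00326, SE 0.17). Its partner Col6a2 had 149 and 169.5 in DMSO, 622 and 484 under TGF-β, and 105 and 150.0 under TGF-β+2APB. Col12a1, a collagen that sits on the surface of fibrils, had 6232 and 6452 in DMSO, 50891 and 50003 under TGF-β, and 19348 and 22258 under TGF-β+2APB. For Col6a1, Col6a2 and Col12a1 both TGF-β+2APB libraries lay below both TGF-β libraries. The rise was that of Col5a3, a minor fibrillar chain, with a log2 fold change of 1.02 (edgeR FDR 0.0118, SE 0.15), and its FDR was 0.0588 without TGF-β+2APB replicate 1 (range 1.5e-08 to 0.0588). The count of higher collagens was 0 without TGF-β+2APB replicate 1 (2 at an unadjusted p under 0.05), 3 without TGF-β replicate 1 and 4 without TGF-β replicate 2, and without TGF-β replicate 1 and TGF-β+2APB replicate 2 together, the pair chosen after seeing the data, 8 were higher and 4 lower. Of 20 tested fibronectin, laminin and matricellular genes 9 fell and 2 rose, with a median of -0.36. Nid2, nidogen 2 of the basement membrane, had 2456 and 2565 in DMSO, 561 and 525 under TGF-β, and 103 and 156 under TGF-β+2APB, a log2 fold change of -2.07 (edgeR FDR 0.00457, SE 0.20). Lamb3, a chain of an epithelial laminin, was among the rises, with 3375 and 3429 in DMSO, 8385 and 7946 under TGF-β, and 19433 and 19210.0 under TGF-β+2APB. The lower count was 2 without TGF-β+2APB replicate 1, 3 without either DMSO replicate and 5 without TGF-β+2APB replicate 2.

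Of 25 tested matrix metalloproteinases, ADAMTS proteases and TIMPs 7 fell and 3 rose. Mmp9, gelatinase B, had 27.5 and 20.7 in DMSO, 3302 and 3276 under TGF-β, and 1341 and 938 under TGF-β+2APB, a log2 fold change of -1.53 (edgeR FDR 0.0072, SE 0.19). Mmp13, collagenase 3, had 1404 and 1166 in DMSO, 1144 and 1026 under TGF-β, and 386 and 417 under TGF-β+2APB. Adamts1 and Adamts9, proteases of proteoglycans, fell by 1.71 (edgeR FDR 0.00471, SE 0.17) and 2.39 (edgeR FDR 0.00774, SE 0.30) on the log2 scale. In these proteases no TGF-β+2APB library reached a TGF-β library. Mmp15, a membrane-bound metalloproteinase, rose, with 2214 and 2084 in DMSO, 2066 and 1821 under TGF-β, and 4211 and 3773 under TGF-β+2APB. Lower members numbered 4 without either DMSO replicate or TGF-β+2APB replicate 1.

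Genes of the interleukin-6 family and its signalling moved in both directions. Of 20 tested genes of this list 6 were higher and 4 lower, and no library left out moved either count by more than 1.5 times. Lif, leukaemia inhibitory factor, had 2956 and 2762 in DMSO, 15082 and 15247 under TGF-β, and 38941 and 30616 under TGF-β+2APB, a log2 fold change of 1.20 (edgeR FDR 0.00528, SE 0.12). Il11, a cytokine of the same family, had 74.7 and 76.5 in DMSO, 18377 and 19671 under TGF-β, and 37600.0 and 29762 under TGF-β+2APB. Osm, oncostatin M, had 1.97 and 0 in DMSO, 7.8 and 6.23 under TGF-β, and 83.2 and 122 under TGF-β+2APB. Pim1, a kinase induced by STAT factors, had 275 and 275 in DMSO, 2214 and 1906 under TGF-β, and 8605 and 8096 under TGF-β+2APB. All TGF-β+2APB values of these genes were above those of TGF-β alone. Osmr, the oncostatin M receptor subunit, had 218 and 242 in DMSO, 154 and 120.4 under TGF-β, and 43.6 and 35.5 under TGF-β+2APB and fell by 1.79 (edgeR FDR 0.0109, SE 0.26) on the log2 scale. Lifr, the LIF receptor, fell by 0.93 (edgeR FDR 0.00501, SE 0.09), and Stat3, the transcription factor that these receptors activate, by 1.12 (edgeR FDR 0.0059, SE 0.12). Il6st, the receptor chain that the family shares, had a log2 fold change of -0.46 (edgeR FDR 0.0184, SE 0.08), and its FDR was 0.0705 without DMSO replicate 1, 0.0716 without DMSO replicate 2, 0.125 without TGF-β+2APB replicate 1 and 0.0949 without TGF-β+2APB replicate 2 (range 1.6e-06 to 0.125, called in 7 of 8 remaining fits). The receptor chain Il6ra moved the other way, with 370.3 and 453 under TGF-β and 800.3 and 657 under TGF-β+2APB and a log2 fold change of 0.82 (edgeR FDR 0.0434, SE 0.20). Its FDR was 0.0752 without DMSO replicate 1, 0.0744 without DMSO replicate 2, 0.0857 without TGF-β replicate 1, 0.183 without TGF-β+2APB replicate 1 and 0.0599 without TGF-β+2APB replicate 2 (range 0.00378 to 0.183, called in 5 of 8 remaining fits).

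Interleukins and their receptors taken as a family gave 5 higher (12.8%) and 10 lower (25.6%) of 39 tested, against 6.58% and 10.9% over all tested genes. Il33, among the largest falls, had 4713 and 3758 under TGF-β and 97.1 and 401 under TGF-β+2APB. Il13ra1, a receptor chain for interleukins 4 and 13, had 4450.4 and 4418 in DMSO, 2721 and 2533 under TGF-β, and 933 and 922 under TGF-β+2APB. Il1rn, the antagonist of the interleukin 1 receptor, rose with 3493 and 3072 in DMSO, 2031 and 2020.3 under TGF-β, and 3759.8 and 4394 under TGF-β+2APB. Higher members numbered 2 without TGF-β+2APB replicate 2 and 3 without DMSO replicate 2 or TGF-β replicate 1, and lower members 4 without either DMSO replicate and 5 without either TGF-β+2APB replicate. NF-κB components and targets gave 1 higher (2.70%) and 7 lower (18.9%) of 37 tested. Vcam1, an adhesion molecule that binds leukocytes, had 33193 and 31485 in DMSO, 13099 and 10998 under TGF-β, and 2316 and 3561 under TGF-β+2APB, a log2 fold change of -2.04 (edgeR FDR 0.00552, SE 0.22). Ccl2, a chemokine that attracts monocytes, had 12274 and 11585 in DMSO, 7202 and 7855 under TGF-β, and 3669 and 4355 under TGF-β+2APB. Falls numbered 3 without either DMSO replicate and 12 without TGF-β replicate 2, and rises 3 without TGF-β replicate 1 or TGF-β+2APB replicate 1 and 4 without TGF-β replicate 2. The leukocyte markers summed to 13834 and 9624 normalised counts under TGF-β and 4051 and 38981 under TGF-β+2APB, and their part in these lists was not tested.

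Of 37 tested early-response factors and feedback regulators of MAP kinase signalling 9 were higher (24.3%) and 5 lower (13.5%, near the 10.9% over all tested genes). Dusp6, a cytosolic phosphatase of ERK, had 12634 and 11622 in DMSO, 14588 and 11935 under TGF-β, and 4451 and 6566 under TGF-β+2APB, a log2 fold change of -1.27 (edgeR FDR 0.0144, SE 0.20). Spry4 and Spry2, sprouty inhibitors of receptor tyrosine kinase signalling, fell by 1.74 (edgeR FDR 0.00386, SE 0.15) and 0.84 (edgeR FDR 0.00751, SE 0.10) on the log2 scale. These feedback genes were lower in both TGF-β+2APB libraries than with TGF-β. Dusp4, a nuclear phosphatase, rose with 6389.5 and 6115 in DMSO, 11345 and 10625 under TGF-β, and 21951 and 19784 under TGF-β+2APB. Fosb, an AP-1 subunit, had 136 and 91 in DMSO, 253 and 284 under TGF-β, and 1198 and 1109 under TGF-β+2APB, a log2 fold change of 2.10 (edgeR FDR 0.00482, SE 0.21). Without TGF-β+2APB replicate 1 there were 5 higher members, and without TGF-β replicate 2 there were 8 lower.

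Among 17 tested EGF and FGF ligands and receptors 3 were higher (17.6%) and 7 lower (41.2%), against 6.58% and 10.9% over all tested genes. Btc, the EGF receptor ligand betacellulin, had 1697 and 1763 in DMSO, 1146 and 1204 under TGF-β, and 499 and 539 under TGF-β+2APB, a log2 fold change of -1.18 (edgeR FDR 0.00317, SE 0.09). Fgf1, the acidic fibroblast growth factor, had 10685 and 10357 in DMSO, 912 and 795 under TGF-β, and 263 and 243 under TGF-β+2APB. Fgfr1, an FGF receptor, rose with 199 and 169.5 in DMSO, 2885 and 2840.4 under TGF-β, and 10717 and 8869.6 under TGF-β+2APB. In each the values of the groups compared did not overlap. The lower count was 3 without either DMSO replicate and 4 without TGF-β+2APB replicate 1. PDGF, VEGF and insulin-like growth factor genes gave 8 higher and 1 lower of 21 tested, with a median of 0.26. Vegfa, vascular endothelial growth factor, had 9359 and 9129 in DMSO, 7933 and 9520.0 under TGF-β, and 16345 and 14741 under TGF-β+2APB. Igfbp3, a binding protein of insulin-like growth factors, had 2205 and 2414 in DMSO, 9700.3 and 7631 under TGF-β, and 18122 and 18334 under TGF-β+2APB. Pdgfra, a PDGF receptor, had 76.7 and 76.5 in DMSO, 85.8 and 93.4 under TGF-β, and 283 and 249 under TGF-β+2APB, a log2 fold change of 1.57 (edgeR FDR 0.00904, SE 0.21). The lower member was Igfbp4, which restrains insulin-like growth factors and is named by the study, with 1835 and 1827 in DMSO, 13279 and 9825 under TGF-β, and 3813 and 4685 under TGF-β+2APB. Rises numbered 5 without either DMSO replicate, and falls 2 without TGF-β replicate 1 or TGF-β+2APB replicate 2 and 3 without TGF-β replicate 2.

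Of 20 tested genes of BMP signalling and the Id family 4 were lower and 3 higher. Id1, an inhibitor of DNA binding by basic helix-loop-helix factors, had 18189 and 16109.6 in DMSO, 7102 and 5573 under TGF-β, and 1371 and 1688 under TGF-β+2APB, a log2 fold change of -2.05 (edgeR FDR 0.00358, SE 0.17). Id2 had 60892 and 58454 in DMSO, 30711 and 27157 under TGF-β, and 7407 and 12609 under TGF-β+2APB. Bmp4 and Bmp2, ligands of the family, fell by 0.85 (edgeR FDR 0.0103, SE 0.12) and 0.75 (edgeR FDR 0.00706, SE 0.09) on the log2 scale, whereas Bmp7 rose with 1050.2 and 1073 in DMSO, 1774 and 1736 under TGF-β, and 3203 and 2955 under TGF-β+2APB. All 4 of the lower genes had TGF-β+2APB values below both TGF-β values. The tally of rises was 1 without either DMSO replicate or either TGF-β+2APB replicate and 5 without TGF-β replicate 2. Wnt pathway genes gave 6 higher (18.2%) and 5 lower (15.2%) of 33 tested. The ligand Wnt7a had 37.4 and 41.3 in DMSO, 688 and 536 under TGF-β, and 2864 and 2306 under TGF-β+2APB, while Lgr4, the R-spondin receptor, had 7199.8 and 7597 in DMSO, 2797 and 2786 under TGF-β, and 1515 and 1459 under TGF-β+2APB. The effector Tcf7l2 fell by 0.75 (edgeR FDR 0.00556, SE 0.08) on the log2 scale. The higher count was 2 without TGF-β+2APB replicate 1 and 3 without either DMSO replicate, and the lower count 2 without either DMSO replicate and 3 without TGF-β+2APB replicate 2.

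Of 15 tested genes of store-operated calcium entry and store release 1 rose (6.67%) and 4 fell (26.7%), with a median of -0.17. Itpr1, an inositol trisphosphate receptor that releases calcium from the endoplasmic reticulum, had 1322 and 1389 in DMSO, 2604 and 2521 under TGF-β, and 4517 and 3989.7 under TGF-β+2APB, a log2 fold change of 0.73 (edgeR FDR 0.00687, SE 0.09). Stim1, the calcium sensor of the store, had 4559 and 4461 in DMSO, 5058 and 4342 under TGF-β, and 3362 and 3648 under TGF-β+2APB, a log2 fold change of -0.42 (edgeR FDR 0.0374, SE 0.10). Stim2 had 4292 and 4252 under TGF-β and 3280.4 and 3358 under TGF-β+2APB, a log2 fold change of -0.36 (edgeR FDR 0.0202, SE 0.07). The groups did not overlap in either sensor, but both calls were lost without single libraries. The edgeR FDR of Stim1 was 0.11 without DMSO replicate 1, 0.11 without DMSO replicate 2, 0.202 without TGF-β+2APB replicate 1 and 0.117 without TGF-β+2APB replicate 2 (range 0.00226 to 0.202, called in 5 of 8 remaining fits). That of Stim2 was 0.0777 without DMSO replicate 1, 0.0782 without DMSO replicate 2, 0.138 without TGF-β+2APB replicate 1 and 0.122 without TGF-β+2APB replicate 2 (range 2.66e-05 to 0.138, called in 6 of 8 remaining fits). At an unadjusted p under 0.05 edgeR placed 3 members higher and 4 lower, and DESeq2 called 3 higher and 4 lower. The lower count of this list was 0 without either DMSO replicate or either TGF-β+2APB replicate (4, 4, 4 and 3 at an unadjusted p under 0.05 in that order), and the higher count 2 without DMSO replicate 1 and 3 without TGF-β replicate 1. Ryr1, a ryanodine receptor of the store, had 40.9 and 51.9 under TGF-β and 155 and 159.9 under TGF-β+2APB, a log2 fold change of 1.76 (edgeR FDR 0.0528, SE 0.46), and missed the threshold (range 0.00221 to 0.12). It was called higher by DESeq2 (FDR 0.00221) and by edgeR with only the 4 compared libraries (FDR 0.0429), with halved counts (FDR 0.027) and without DMSO replicate 1 (FDR 0.0492). The ORAI channel genes did not pass: Orai1 had 2181 and 1711 under TGF-β and 1591 and 1858 under TGF-β+2APB (edgeR FDR 0.445), Orai2 had 2569 and 2521 under TGF-β and 2652 and 2592 under TGF-β+2APB (edgeR FDR 0.741) and Orai3 had 1629 and 1318 under TGF-β and 1410.4 and 1394 under TGF-β+2APB (edgeR FDR 0.705, range 0.0473 to 0.859). Without TGF-β replicate 2 Orai3 was called lower (FDR 0.0473).

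Of 11 tested TRP channels 2 rose (18.2%) and 3 fell (27.3%). Trpv4, a calcium channel opened by swelling and heat, had 74.7 and 97.2 in DMSO, 142 and 159.9 under TGF-β, and 869.6 and 843 under TGF-β+2APB, a log2 fold change of 2.50 (edgeR FDR 0.00311, SE 0.18). Trpa1, a channel opened by reactive chemicals, had 11.8 and 14.5 in DMSO, 66.3 and 54 under TGF-β, and 5.94 and 7.9 under TGF-β+2APB and fell by 3.10 (edgeR FDR 0.00774, SE 0.39) on the log2 scale. Each was separated between the groups in all 4 libraries. Higher members numbered 1 without DMSO replicate 2, and lower members 1 without either DMSO replicate or either TGF-β+2APB replicate. Of 19 tested calcineurin, calmodulin and NFAT genes 2 rose (10.5%) and 3 fell (15.8%), shares near those over all tested genes (6.58% and 10.9%). Nfatc2, a calcium-regulated transcription factor, had 1754 and 1860.5 in DMSO, 1721 and 1507 under TGF-β, and 4156 and 3459 under TGF-β+2APB, a log2 fold change of 1.24 (edgeR FDR 0.00471, SE 0.12). Rises numbered 1 without either DMSO replicate or either TGF-β+2APB replicate and 5 without TGF-β replicate 2, and falls 0 without either DMSO replicate (4 and 4 at an unadjusted p under 0.05 in that order), 1 without TGF-β+2APB replicate 1 and 6 without TGF-β replicate 2.

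Falls outnumbered rises in the lists of detoxification and transport, as they did over all tested genes. Of 32 tested cytochrome P450 genes 10 fell and 1 rose, with a median of -0.34. Cyp2s1, a P450 of epithelia, had 11963 and 11119 in DMSO, 2304 and 1536 under TGF-β, and 291 and 513 under TGF-β+2APB, a log2 fold change of -2.25 (edgeR FDR 0.01, SE 0.31). Lower members numbered 4 without TGF-β+2APB replicate 1 and 5 without either DMSO replicate, and the higher count was 0 without either DMSO replicate, TGF-β replicate 1 or TGF-β+2APB replicate 2 (3, 3, 2 and 3 at an unadjusted p under 0.05 in that order) and 2 without TGF-β replicate 2. Among 36 tested ABC transporters 9 fell and 1 rose. Abcb1b, a multidrug exporter, had 246 and 285 in DMSO, 239.7 and 253 under TGF-β, and 47.5 and 63.2 under TGF-β+2APB, a log2 fold change of -2.15 (edgeR FDR 0.00556, SE 0.23). Abcc3, an exporter of organic anions, had 15308 and 14869 in DMSO, 2775 and 2059.7 under TGF-β, and 769 and 1104 under TGF-β+2APB. Both were lowest with TGF-β+2APB. The higher ABC count was 0 without either DMSO replicate or TGF-β+2APB replicate 2 (0, 0 and 2 at an unadjusted p under 0.05 in that order) and 4 without either TGF-β replicate. Of 29 tested NRF2 and glutathione genes 3 rose (10.3%) and 6 fell (20.7%), against 6.58% and 10.9% over all tested genes. The chains of the enzyme that starts glutathione synthesis moved apart: the catalytic chain Gclc had 51065 and 49846 in DMSO, 15185 and 13399 under TGF-β, and 3819 and 5881 under TGF-β+2APB, and the modifier chain Gclm had 13679.8 and 13646 in DMSO, 11203 and 11924 under TGF-β, and 21321 and 19364 under TGF-β+2APB. Falls numbered 1 without either DMSO replicate or TGF-β+2APB replicate 1 and 16 without TGF-β replicate 2, and rises 6 without TGF-β replicate 1.

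Of 33 tested genes of glycolysis and the hypoxia response 5 were higher (15.2%) and 7 lower (21.2%). Hk2, hexokinase 2, had 1740.5 and 1858 in DMSO, 6631 and 6011 under TGF-β, and 11157 and 11128 under TGF-β+2APB, a log2 fold change of 0.82 (edgeR FDR 0.00501, SE 0.08). Pfkfb4, which makes an activator of phosphofructokinase, had 246 and 205 in DMSO, 955 and 1015 under TGF-β, and 2997 and 2357 under TGF-β+2APB. Pdk1, which restrains pyruvate dehydrogenase, had 5874 and 5662 in DMSO, 2085 and 1877 under TGF-β, and 1056 and 1094 under TGF-β+2APB. Egln3, an oxygen-sensing prolyl hydroxylase, fell by 1.71 (edgeR FDR 0.0109, SE 0.24) on the log2 scale. The groups were separated in all of these. The tally of rises was 3 without either DMSO replicate or TGF-β+2APB replicate 1, and the lower count 2 without either DMSO replicate or TGF-β+2APB replicate 1, 3 without TGF-β+2APB replicate 2 and 15 without TGF-β replicate 2. Targets of ATF4 and the amino acid response gave 9 higher (25.7%) and 3 lower (8.57%) of 35 tested. Trib3, a pseudokinase of the stress response, had 635 and 609.8 in DMSO, 520.4 and 455 under TGF-β, and 1476 and 1198 under TGF-β+2APB, a log2 fold change of 1.45 (edgeR FDR 0.0047, SE 0.14). Psat1, an enzyme of serine synthesis, fell by 1.14 (edgeR FDR 0.00516, SE 0.12) on the log2 scale. The higher count was 2 without either DMSO replicate, 3 without TGF-β+2APB replicate 1 and 5 without TGF-β+2APB replicate 2, and the lower count 1 without either DMSO replicate or either TGF-β+2APB replicate and 10 without TGF-β replicate 2. In the list of AKT, PI3K and mTOR genes 6 of 37 were higher (16.2%, against 6.58% over all tested genes) and 3 lower (8.11%, below the 10.9% over all tested genes). Sgk1, a kinase related to AKT, had 2452 and 2355 in DMSO, 4619 and 4342 under TGF-β, and 11894 and 9939.6 under TGF-β+2APB. Deptor, an inhibitor of mTOR, had 3400.3 and 3183 in DMSO, 1041 and 1127 under TGF-β, and 218 and 296 under TGF-β+2APB and fell by 2.08 (edgeR FDR 0.00311, SE 0.16) on the log2 scale. Higher members numbered 3 without either TGF-β+2APB replicate and 10 without TGF-β replicate 2, and lower members 1 without either DMSO replicate or either TGF-β+2APB replicate, 5 without TGF-β replicate 1 and 8 without TGF-β replicate 2.

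Growth machinery showed few calls by edgeR and more by DESeq2. Of 40 ribosome biogenesis genes edgeR called none at an FDR of 0.05, 8 were higher and 0 lower at an unadjusted p under 0.05, and DESeq2 called 8 higher and 0 lower. Their median was 0.16 on the log2 scale and the count of higher genes was 10 without TGF-β replicate 1 and 14 without TGF-β replicate 2. Of 76 cytosolic ribosomal protein genes 1 was higher, and of 86 respiratory chain genes 5 were, and the others did not pass. At an unadjusted p under 0.05 edgeR placed 23 of the ribosomal protein genes and 10 of the respiratory chain genes higher, and DESeq2 called 26 and 9. With RLE scaling 7 of the cytosolic ribosomal proteins were higher. Their median was 0.16, with 68 of 76 above 0, and that of the respiratory chain complexes 0.04. For the cytosolic ribosomal proteins the higher count was 0 without either DMSO replicate or either TGF-β+2APB replicate (9, 9, 0 and 1 at an unadjusted p under 0.05 in that order), 13 without TGF-β replicate 2 and 53 without TGF-β replicate 1. For the respiratory chain complexes it was 0 without TGF-β+2APB replicate 1 (4 at an unadjusted p under 0.05), 1 without either DMSO replicate or TGF-β+2APB replicate 2, 9 without TGF-β replicate 2 and 25 without TGF-β replicate 1, and the lower count was 1 without TGF-β replicate 1 and 11 without TGF-β replicate 2. A missed threshold does not show that these genes were equal between the groups.

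**Figure D3:**
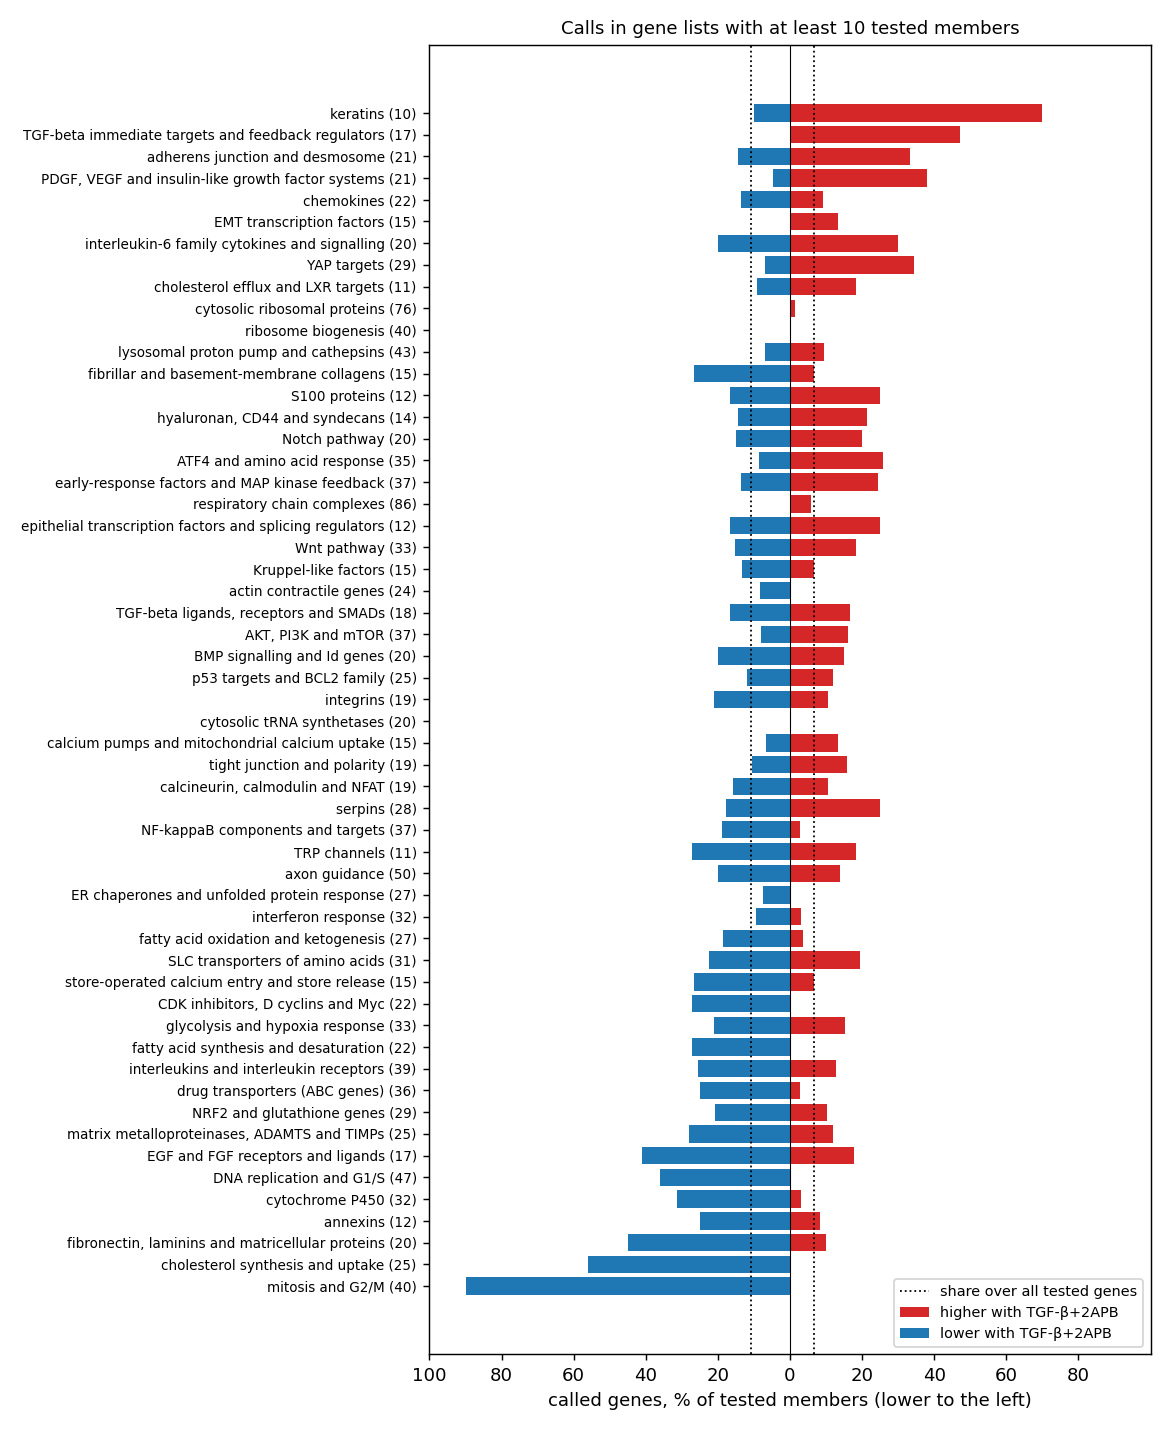
Percent of the tested members of each list called higher (to the right) or lower (to the left) with TGF-β+2APB against TGF-β, for lists with at least 10 tested members. The dotted lines mark 6.58% and 10.9%, the shares over all 13355 tested genes, and the mitosis list reaches 90.0% lower.

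A list of 22 genes that the study names was chosen in part on these samples. The study names some of them for these libraries and others, the ORAI and STIM genes among them, for its other experiments. Of the 22, 21 were tested, and 2 were higher (9.52%) and 3 lower (14.3%), shares near those over all tested genes. The lower genes were Igfbp4, Stim1 and Stim2. Igfbp4 had a log2 fold change of -1.44 (edgeR FDR 0.00703, SE 0.17). Dsp, the desmosomal plaque protein desmoplakin, had 34949.8 and 33761 under TGF-β and 45163 and 42469 under TGF-β+2APB, a log2 fold change of 0.35 (edgeR FDR 0.0212, SE 0.07), and its FDR was 0.0886 without DMSO replicate 1, 0.0888 without DMSO replicate 2, 0.246 without TGF-β+2APB replicate 1 and 0.105 without TGF-β+2APB replicate 2 (range 2.73e-07 to 0.246, called in 7 of 8 remaining fits). Cyp1b1, a P450 that oxidises oestrogens, had 809 and 808 under TGF-β and 1335 and 1104 under TGF-β+2APB, a log2 fold change of 0.59 (edgeR FDR 0.044, SE 0.14). Its FDR was 0.0808 without DMSO replicate 1, 0.0818 without DMSO replicate 2, 0.0738 without TGF-β replicate 1, 0.0552 without TGF-β replicate 2, 0.255 without TGF-β+2APB replicate 1 and 0.065 without TGF-β+2APB replicate 2 (range 0.00484 to 0.255, called in 4 of 8 remaining fits). The others, the ORAI genes included, did not pass, though some were called in other fits. Snai1, a repressor of epithelial genes, had 5.9 and 12.4 in DMSO, 25.3 and 41.5 under TGF-β, and 43.6 and 61.2 under TGF-β+2APB and an edgeR FDR of 0.385. Snai2 had 325 and 448 under TGF-β and 299 and 353 under TGF-β+2APB (edgeR FDR 0.456). Zeb1, a repressor of the same kind, had 8969 and 9829 under TGF-β and 11048 and 9882 under TGF-β+2APB (edgeR FDR 0.284), and Zeb2 had 3900.0 and 6179 under TGF-β and 7551 and 6719.8 under TGF-β+2APB (edgeR FDR 0.165, range 0.00326 to 0.47) and was called higher without TGF-β replicate 2 (FDR 0.00326). Twist1 had at most 6 counts in a library and was not tested. Akt1, Akt2, Mtor and Rictor had log2 fold changes of -0.20, -0.11, 0.09 and 0.14, and those of Ocln, Ercc1 and Twist2 were -0.23, 0.23 and -0.68. Without TGF-β replicate 2 edgeR called Akt1 (FDR 0.014, range 0.014 to 0.496) and Akt2 (FDR 0.0149, range 0.0149 to 0.779) lower and Rictor (FDR 0.00529, range 0.00529 to 0.913) higher, and without TGF-β replicate 1 it called Ercc1 higher (FDR 0.0337, range 0.0337 to 0.692). Ocln was called lower by DESeq2 (FDR 0.0154) and by edgeR with library size scaling (FDR 0.0379), without TGF-β replicate 1 (FDR 0.0419) and without TGF-β replicate 2 (FDR 0.0182), over a range of 0.0154 to 0.359. Abcg1, a cholesterol exporter, had 29.2 and 16.6 under TGF-β and 31.7 and 306 under TGF-β+2APB, so that its log2 fold change of 2.87 (edgeR FDR 0.131, SE 1.09) rests on TGF-β+2APB replicate 2. DESeq2 called it higher (FDR 0.0319), as did edgeR without TGF-β+2APB replicate 1 (FDR 0.0208, range 0.0208 to 0.728). The higher count of this list was 0 without either DMSO replicate or TGF-β+2APB replicate 2 (2, 2 and 2 at an unadjusted p under 0.05 in that order) and 1 without TGF-β+2APB replicate 1, and the lower count 1 without either DMSO replicate or either TGF-β+2APB replicate and 7 without TGF-β replicate 2.

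The study names more genes for these libraries than the list of 22 holds, and 7 of them were taken up after their values had been seen. Klf4, Krt19 and Osm are given with their families. Msi1, an RNA-binding protein, had 3.93 and 2.07 in DMSO, 11.7 and 6.23 under TGF-β, and 79.2 and 67.1 under TGF-β+2APB, a log2 fold change of 3.01 (edgeR FDR 0.0129, SE 0.46). Reln, the secreted glycoprotein reelin, had 5.9 and 6.2 in DMSO, 17.5 and 14.5 under TGF-β, and 65.4 and 101 under TGF-β+2APB, a log2 fold change of 2.36 (edgeR FDR 0.014, SE 0.37), and its FDR was 0.0502 without DMSO replicate 2 (range 0.000422 to 0.0502). Both had few reads in the DMSO and TGF-β libraries and more in both TGF-β+2APB libraries. The gene 2610018G03Rik was called higher with all 6 libraries (edgeR FDR 0.0214, range 0.00107 to 0.0666). Its call was lost without either DMSO replicate, TGF-β replicate 1 or TGF-β+2APB replicate 1 and held in 5 of 7 remaining fits. Cdh1, the epithelial cadherin, had 91231 and 90652 in DMSO, 58644 and 47268 under TGF-β, and 35078 and 41083 under TGF-β+2APB and missed the threshold (edgeR FDR 0.057, range 0.00792 to 0.264). It was called lower by DESeq2 (FDR 0.00792), by edgeR with library size scaling (FDR 0.0409) and by edgeR without TGF-β replicate 2 (FDR 0.00819).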

How the data were processed

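Total RNA of NMuMG cells was sequenced in 2 replicates for each of 3 treatments. Per the submitters' processing notes the reads were checked with FastQC 0.11.2, aligned with TopHat2 2.0.13 to mm10 and compared with DESeq2 1.6.1, and the paper's methods, which name a human genome build, add counting on genes with featureCounts. The authors deposited unscaled raw counts of each gene for 18512 entries named by mouse gene symbol, of which 25 had been turned into dates by a spreadsheet and are not named. Every deposited value was even, and the smallest count above 0 was 2. Strand setting, gene annotation and treatment of reads with several alignments are not given in the sources used here, so members of near-identical families (Krt, Serpinb9, Cyp, Ugt) and antisense genes are uncertain. Total counts ran from 71840570 to 79473182 per library, and the biological coefficient of variation over genes was 17.4%.

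The tests used edgeR 4.0.16 in R 4.3.3. Libraries were scaled by TMM factors, genes with a mean of at least 20 normalised counts were kept, and 1 quasi-likelihood model was fitted to the 3 groups, with 3 residual degrees of freedom. Calls needed a Benjamini-Hochberg FDR of 0.05 or less. The SE was taken as the size of the log2 change over the root of F. Python 3.11.15, pandas 2.3.3 and matplotlib 3.10.9 made tables and plots. Gene positions and promoters came from RefSeq GRCm38.p6, to which 13283 of the 13355 tested entries (99.5%) were matched. The procedure was tested on simulated data.

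The libraries compared and the gene lists were chosen with earlier results of these data known. Named genes are the 10 largest rises and falls by log2 fold change with a mean of at least 200 and the libraries in order, the 5 most abundant rises and falls of at least 2-fold, up to 4 rises and 4 falls of each list described, and 22 genes the study names for these libraries, a list found incomplete, to which 7 were added after their values were seen. Other members of a described list were named after their values were seen, and some genes that this rule takes are not reported here. Alternatives were DESeq2 1.42.0, RLE or library size scaling, no filter, the replicate number as a block, a minimum of 10 counts in each library, only the 4 compared libraries, halved counts and each library left out. A lone library left in a group was assumed to vary like those of the other groups. Read-level data were not analysed here.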

Additional observations from a re-analysis of the deposited data

How the results depend on the processing

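With TMM scaling and edgeR, addition of 2APB gave 879 higher and 1456 lower genes. RLE scaling, library size scaling, no filter, at least 10 counts in every library and halved counts kept both counts within 1.5 times of these. DESeq2 called 1672 higher, 1632 of them with the libraries in order, and 2024 lower. Fitting only the 4 libraries compared gave 369 higher and 491 lower, with 2 of the 3 residual degrees of freedom. Over the fits without a single library, which also have 2 and in which every call was in order, the higher count ranged from 339 to 2469 and the lower count from 495 to 2936. Without TGF-β replicate 1 and TGF-β+2APB replicate 2 together, a fit chosen after seeing the data with 1 residual degree of freedom, they were 3329 and 3251. The main fit pooled the spread of 3 groups. In genes with a mean of at least 500, the SD of the log2 difference between replicates was 0.11 in DMSO, 0.40 under TGF-β and 0.31 under TGF-β+2APB. Whether this pooling understates the spread of the groups compared was not tested. Leaving out a library changed both the pairs pooled and the degrees of freedom, and the cause of these moves was not tested.

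With the replicate number as a block, 508 genes were higher and 835 lower, and 1333 of the 1343 were also called without it. The numbers share only a label: across genes the replicate differences correlated with an r of 0.147 for DMSO with TGF-β, -0.458 for DMSO with TGF-β+2APB and -0.255 for the treated groups with each other. A block with the TGF-β+2APB numbers exchanged, chosen after seeing the data, gave 931 higher and 1534 lower, of which 923 and 1533 had the libraries in order.

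The following totals include the fits chosen after seeing the data. Of the fold changes of single genes over these fits, 4756 kept their side of the threshold, 972 lost the call and 38 gained it. None changed direction where either fit called the gene. The 4756 include changes of direction in genes called in neither fit, such as Lyz2, with log2 fold changes from -1.66 to 6.24 over the alternatives. For the gene lists, 1250 counts stayed within 1.5 times of the value given and 670 did not. At total counts of 71840570 or more a library, genes with a mean under 20 normalised counts were not tested, and 2 libraries a group leave the spread poorly known.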
